A study of Mus musculus with 24 samples.

Results

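Corticosterone, the main glucocorticoid of the mouse, is made from cholesterol in the adrenal cortex by a short chain of proteins. The expression of 6 genes of this chain was followed through 24 whole adrenal glands: Star, Cyp11a1, Hsd3b1, Cyp21a1, Cyp11b1 and Fdx1. They were chosen by name and are given in the order of the pathway, with the electron carrier Fdx1 last. Each was read from 1 probe set, the one with the highest mean signal. All 6 were among the 21957 genes with a probe set of their own and among the 14411 genes bright enough to be tested. The mice were 7 months old, on a mixed sv129-C57Bl/6 background, and fell into 6 groups of 4 arrays, each array being a separate biological replicate per the labels. Knockout (KO) mice of both sexes were Prkar1afl/fl;cre/+;mTmG/mTmG, where Cre is carried by the Cyp11b2 locus (aldosterone synthase) and so acts in the zona glomerulosa and its descendants. Control (WT) females were Prkar1afl/+;cre/+;mTmG/mTmG and WT intact males were Prkar1afl/fl;+/+;mTmG/mTmG, without Cre. The remaining WT and KO males were gonadectomised during the last 2 months (GDX). Their controls were mixed: Prkar1a+/+;+/+;mTmG/mTmG (array 1), Prkar1a+/+;cre/+;mTmG/+ (array 2), Prkar1a+/+;cre/+;mTmG/mTmG (array 3) and Prkar1afl/+;cre/+;mTmG/mTmG (array 4). The mTmG reporter was thus carried by every mouse. The presence of Cre and the loss of Prkar1a cannot be told apart in intact males.

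The chain begins when Star, the steroidogenic acute regulatory protein, moves cholesterol to the inner mitochondrial membrane. Cyp11a1 cleaves its side chain there to give pregnenolone, Hsd3b1 oxidises pregnenolone to progesterone, Cyp21a1 hydroxylates progesterone to deoxycorticosterone in the endoplasmic reticulum, and Cyp11b1 finishes corticosterone back in the mitochondrion. Fdx1, ferredoxin or adrenodoxin, hands electrons to Cyp11a1 and Cyp11b1. In the cortex ACTH acts through cyclic AMP and protein kinase A to raise steroid output, both at once through Star and over longer times through transcription of these genes. Prkar1a encodes a regulatory subunit that keeps the kinase inactive.

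In RefSeq's GRCm38.p6 annotation Star lies on chromosome 8 (25808474 to 25815982), Cyp11a1 on chromosome 9 (57998024 to 58027031), Hsd3b1 on chromosome 3 (98842356 to 98859794), Cyp21a1 on chromosome 17 (34801348 to 34804426), Cyp11b1 on chromosome 15 (74834892 to 74841643) and Fdx1 on chromosome 9 (51943023 to 51963602). The build behind the probe sets was not given in the sources used here. The RefSeq promoter table held 3 of the 6 genes, Cyp11a1 (with 2 transcript starts), Hsd3b1 and Fdx1, and not Star, Cyp21a1 or Cyp11b1. The window of Fdx1 is shown because Fdx1 changed most, and both windows of Cyp11a1 because its probe sets moved in opposite directions. Each runs from 250 bases before to 50 bases after a transcript start. Capitals mark any match, on either strand, to AGGTCA (a core bound by nuclear receptors such as Nr5a1), CAAGGT (the left part of the longer Nr5a1 site, which shares the letters AGGT with the former) or TGACG (the core of the cyclic AMP response element).
Fdx1, chr9:51963553-51963852, minus strand: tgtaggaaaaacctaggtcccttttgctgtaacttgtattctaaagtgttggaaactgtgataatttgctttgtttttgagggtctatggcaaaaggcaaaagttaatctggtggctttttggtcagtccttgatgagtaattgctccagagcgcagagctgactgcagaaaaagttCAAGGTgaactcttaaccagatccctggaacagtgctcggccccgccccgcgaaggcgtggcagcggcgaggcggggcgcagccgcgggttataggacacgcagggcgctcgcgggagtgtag
Cyp11a1 upstream start, chr9:57997774-57998073, plus strand: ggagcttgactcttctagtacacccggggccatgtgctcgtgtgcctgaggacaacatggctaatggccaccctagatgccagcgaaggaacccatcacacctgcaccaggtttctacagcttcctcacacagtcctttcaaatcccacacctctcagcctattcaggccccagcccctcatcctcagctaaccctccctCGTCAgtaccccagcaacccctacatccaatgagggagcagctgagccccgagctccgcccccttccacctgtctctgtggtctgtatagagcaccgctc
Cyp11a1 downstream start, chr9:58014702-58015001, plus strand: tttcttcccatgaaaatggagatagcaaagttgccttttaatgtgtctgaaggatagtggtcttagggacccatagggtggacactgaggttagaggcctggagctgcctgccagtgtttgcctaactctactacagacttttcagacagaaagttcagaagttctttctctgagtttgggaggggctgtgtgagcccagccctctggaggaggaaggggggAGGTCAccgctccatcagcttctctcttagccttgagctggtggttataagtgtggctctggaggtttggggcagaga
Fdx1 held 1 match, CAAGGT, beginning 73 bases before the start. The downstream Cyp11a1 window held AGGTCA 28 bases before its start, and the upstream window held CGTCA, the reverse complement of TGACG, 50 bases before its start. The Hsd3b1 window held 0 matches to these letters. Among 32851 promoter windows of this length 16.3% held AGGTCA, 13% CAAGGT and 20.8% TGACG on either strand.

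All values are log2 RMA signals, in which the authors' processing had already corrected background and normalized the arrays, so 1 unit is a doubling of signal. Array medians lay between 5.20 and 5.29, and arrays of 1 group correlated at 0.989 to 0.995 (Pearson's r over probe sets). The targeted gene Prkar1a did not overlap between KO and WT arrays in any of the 3 pairs of groups and was lower in KO, although in intact males its change of -0.92 had an adjusted p of 0.16. The cortex genes Nr5a1 (9.53 to 10.63) and Mc2r (10.56 to 11.33) and the medulla genes Th (9.76 to 11.36) and Chga (11.21 to 12.39) were read in all arrays of these whole glands. In bulk tissue, fewer cells of a type and less RNA per cell cannot be told apart.

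With each gene read from its brightest probe set, the loss of Prkar1a went with a clear rise in Fdx1 and with much smaller differences in the other 5 genes. A second, dimmer probe set of Cyp11a1 was lower in KO, against the direction of the set used here. With limma over all probe sets it gave -0.802 in females (adjusted p 0.00135), -0.519 in GDX males (0.0942) and -0.148 in intact males (0.925). In females Fdx1 rose 2.38-fold (log2 change 1.25 ± 0.11, standard error), while Star, Cyp11a1 and Cyp21a1 were higher in KO by 0.12 to 0.20 on the log2 scale and Hsd3b1 and Cyp11b1 stood at -0.15 and -0.11. Across genes called at a Benjamini-Hochberg adjusted p under 0.05 by limma, 4 of the 6 passed in females, all 4 higher in KO, where 32.6% of all genes tested passed, 13.9% higher and 18.7% lower. With array weights all 6 passed in females, Hsd3b1 (-0.17, adjusted p 0.0232) and Cyp11b1 (-0.12, adjusted p 0.0494) as lower in KO. That setting also raised the calls over all 14411 genes, from 4694 to 5857. In intact males 0 of 6 passed limma's test (0.111% of all genes, 0.0694% higher and 0.0416% lower), with 1 member, Fdx1, at an unadjusted p under 0.05. In GDX males 1 of 6 passed, Fdx1, higher in KO (4.23% of all genes, 2.26% higher and 1.97% lower). The 6 genes had a median change of 0.15 (females), 0.01 (intact males) and 0.11 (GDX males), beside -0.02, -0.01 and -0.01 over all genes tested. The KO and WT arrays did not overlap at all for 4 of 6 among females (32.8% of all genes), 1 among intact males (Fdx1, 4.45%) and 1 among GDX males (9.62%). In GDX males that gene was Star, which was not called, and the called Fdx1 overlapped.

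**Figure D1:**
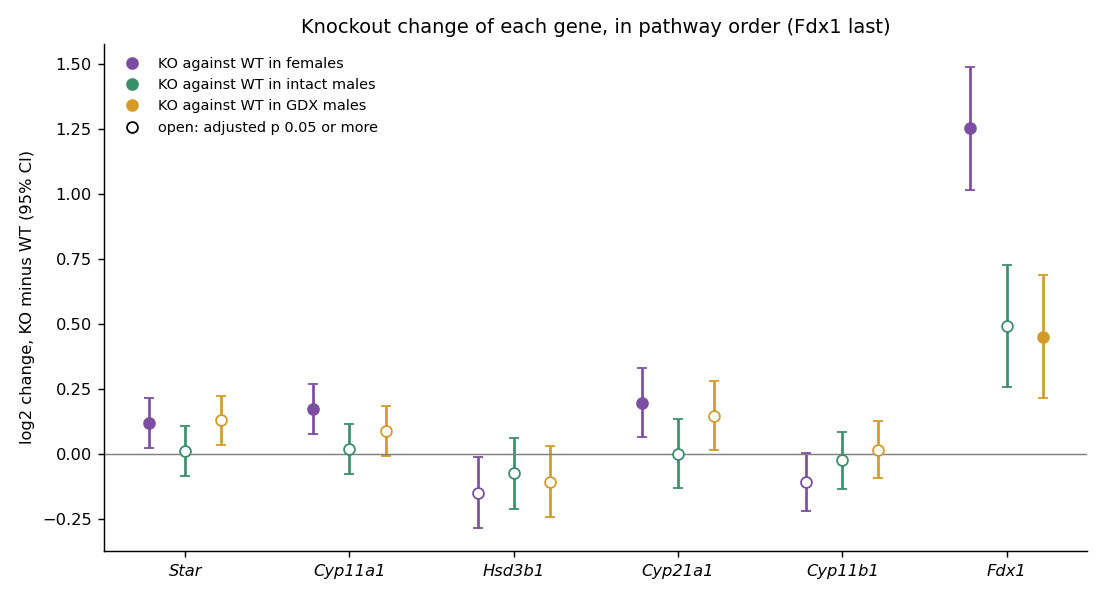
Log2 change in KO against WT for each of the 6 genes (horizontal axis), by sex and gonadal state, with 95% confidence intervals from limma; filled points passed an adjusted p of 0.05. Fdx1 stands apart at 1.25 in females, at 0.49 in intact males and at 0.45 in GDX males, and the points of the other 5 genes lie between -0.15 and 0.20. Each gene is read from its brightest probe set, and the dimmer probe set of Cyp11a1 is not drawn.

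For 5 of the genes the signal lay near the top of the scale. Mean signals over the 24 arrays were 13.06 for Star, 12.74 for Cyp11a1, 12.14 for Hsd3b1, 12.48 for Cyp21a1 and 12.83 for Cyp11b1, in a table whose highest value was 13.40. Among the 14411 genes 2 were brighter than Star, and 31 were brighter than Hsd3b1, the dimmest of the 5. Fdx1 had a mean of 10.42, with 255 genes brighter. Of the 33 genes with a mean over 12, these 5 among them, 10 were called in females (30.3%, beside 32.6% of all genes). Their median size of change was 0.08 against 0.16 over all genes. A change of more than 1 log2 unit was seen in 0 of the 33 and in 440 of the 14411, a share so small that 0 of 33 says little. How far such bright probe sets follow a change in RNA was not tested. These are signals of different probes and do not rank the amounts of RNA between genes.

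**Figure D2:**
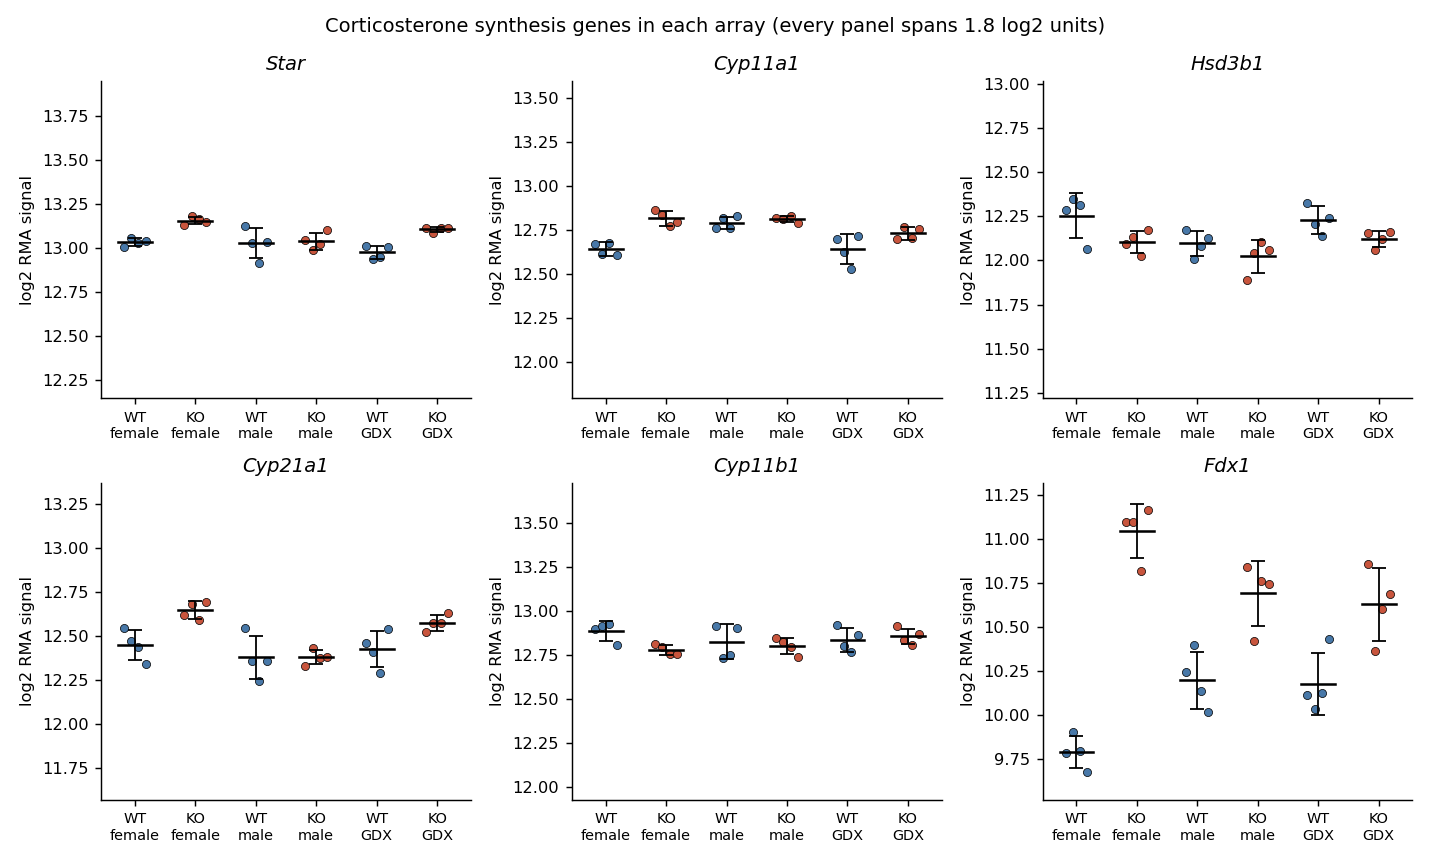
Log2 RMA signal of each gene in every array; blue points are WT, red points KO, bars the mean and SD of 4 arrays. Every panel spans 1.8 log2 units, so the wide separation of Fdx1 in females (WT 9.68 to 9.90, KO 10.82 to 11.16) can be set against the narrow bands of the other genes.

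Star, the cholesterol carrier, varied little within a group. WT females gave 13.01, 13.06, 13.03 and 13.04, and KO females 13.13, 13.18, 13.16 and 13.15. Every KO female lay above every WT female, by a distance that is small in absolute terms (0.12 ± 0.05, adjusted p 0.0465, 95% interval 0.03 to 0.22). That call sits at the threshold: leaving out any 1 of the 8 female arrays ended it (adjusted p 0.0566 to 0.104), as did the fit to the female groups alone (0.0936). After another quantile normalization the change was 0.07. In GDX males the WT arrays stood at 13.01, 12.94, 12.95 and 13.01 and the KO arrays at 13.11, 13.08, 13.11 and 13.11. These groups did not overlap either, and the change of 0.13 ± 0.05 had an adjusted p of 0.111. In intact males WT (12.92 to 13.12) and KO (12.99 to 13.10) overlapped, with a change of 0.01 ± 0.05. Over the 6 groups the means ran from 13.15 in KO females through KO GDX males, KO males, WT females and WT males to 12.97 in WT GDX males. Only KO females were separate from the next group in that order.

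Cyp11a1, the side-chain cleavage enzyme that commits cholesterol to steroids, gave opposite answers with its 2 probe sets. The brighter one stood at 12.67, 12.61, 12.68 and 12.61 in WT females and at 12.86, 12.84, 12.77 and 12.79 in KO females, without overlap. Its change was 0.18 ± 0.05 (adjusted p 0.00635). The dimmer one stood at 7.24, 7.34, 7.51 and 7.62 in WT females and at 6.33, 6.92, 6.75 and 6.50 in KO females, again without overlap but in the other direction. With all 14908 probe sets tested one by one its change was -0.80 ± 0.17 (adjusted p 0.00135), and averaging both probe sets gave -0.31 (adjusted p 0.0133). The direction for Cyp11a1 in KO females therefore depends on the probe set, and which transcript start or exon each covers is unknown here. In intact males the brighter set was 12.76 to 12.83 in WT and 12.79 to 12.83 in KO. In GDX males it was 12.53 to 12.72 in WT and 12.70 to 12.77 in KO, and neither change passed (0.02 and 0.09). The dimmer set gave -0.15 (adjusted p 0.925) in intact males. In GDX males it gave -0.52 (adjusted p 0.0942). By the brighter set WT females and WT GDX males shared the lowest level, with means of 12.64 each, and WT intact males stood at 12.79.

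**Figure D3:**
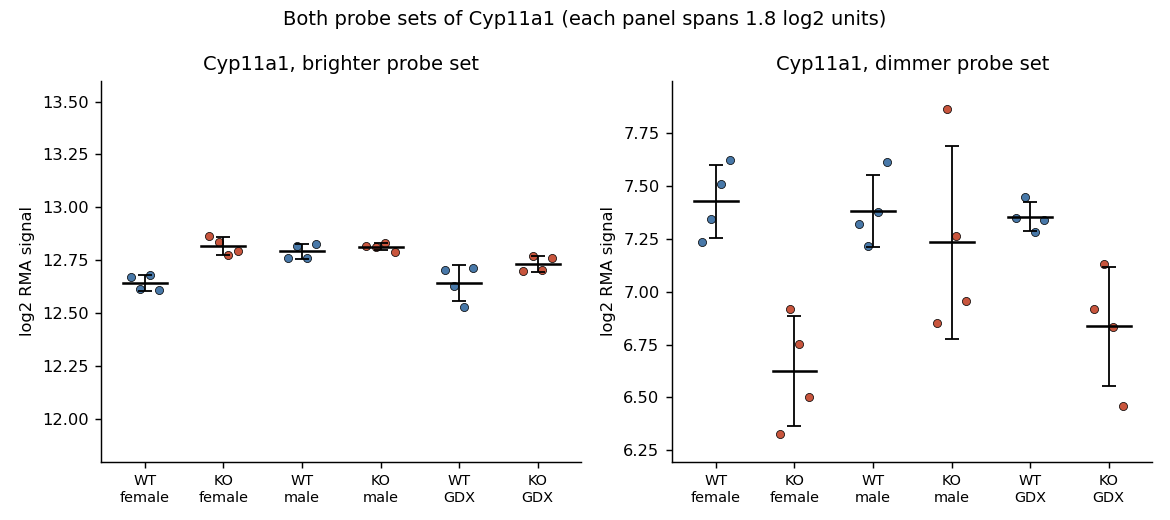
Log2 RMA signal of both Cyp11a1 probe sets in every array, with the mean and SD of 4 arrays; each panel spans 1.8 log2 units. In females the KO arrays lie above WT in the brighter set (12.77 to 12.86 against 12.61 to 12.68) and below WT in the dimmer set (6.33 to 6.92 against 7.24 to 7.62).

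Hsd3b1, which makes progesterone, was the member with the lowest KO values relative to WT, though no comparison passed. WT females gave 12.29, 12.35, 12.31 and 12.07, and KO females 12.09, 12.14, 12.03 and 12.17. WT array 4 lay inside the KO range. The change was -0.15 ± 0.07 (adjusted p 0.0869), and without that array -0.21 (adjusted p 0.0136). It stood at -0.07 ± 0.07 in intact males (WT 12.01 to 12.17, KO 11.89 to 12.11) and at -0.11 ± 0.07 in GDX males (WT 12.14 to 12.33, KO 12.06 to 12.16). Group means ran from 12.25 in WT females to 12.02 in KO males, and each group overlapped the next. Its neighbour Hsd3b6, the isoform of the zona glomerulosa, moved on another scale, from 9.81 to 10.37 in WT females down to 5.57 to 7.47 in KO females (-3.48 ± 0.60, adjusted p 0.000156). How far the probes of these related genes share signal was not given in the sources used here.

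Cyp21a1, the 21-hydroxylase, was highest in KO females and KO GDX males. WT females stood at 12.55, 12.47, 12.44 and 12.34 and KO females at 12.62, 12.69, 12.59 and 12.70, without overlap. The change of 0.20 ± 0.06 passed (adjusted p 0.0199). Leaving out WT array 4, KO array 2 or KO array 4 ended that call (0.0525 to 0.0703). In GDX males WT arrays gave 12.46, 12.41, 12.29 and 12.54 and KO arrays 12.52, 12.57, 12.58 and 12.63, and WT array 4 reached into the KO range (0.15 ± 0.06, adjusted p 0.19). In intact males WT ranged from 12.25 to 12.55 around KO at 12.33 to 12.43, with a change of 0.00 ± 0.06. Group means fell from 12.65 in KO females and 12.58 in KO GDX males through 12.45 in WT females to 12.38 in both groups of intact males, and each group overlapped the next. The RefSeq synonyms of Cyp21a1 include a pseudogene copy, and whether the probe set separates that copy was not given in the sources used here.

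Cyp11b1, the last enzyme of the chain, had the narrowest range of group means of the 6, at 0.11 log2 units. Its 24 arrays lay between 12.73 and 12.92. WT females gave 12.89, 12.91, 12.92 and 12.80 and KO females 12.81, 12.80, 12.75 and 12.75. The groups overlapped by WT array 4, and the change of -0.11 ± 0.05 did not pass (adjusted p 0.13, 95% interval -0.22 to 0.003). It was -0.02 ± 0.05 in intact males and 0.02 ± 0.05 in GDX males. Each of the 6 groups overlapped the next in order of level. Cyp11b2, the aldosterone synthase whose sequence is close to that of Cyp11b1 and whose locus holds the Cre, was at 9.71 to 11.11 in WT and 7.47 to 9.10 in KO females (-2.30 ± 0.36, adjusted p 5.11e-05). Whether the probes separate the pair fully was not given in the sources used here.

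Fdx1, the electron donor of both mitochondrial hydroxylases, was the member that moved. WT females stood at 9.79, 9.90, 9.80 and 9.68, and KO females at 11.10, 11.09, 10.82 and 11.16. The gap between the highest WT and the lowest KO female was wider than the range of either group. The change was 1.25 ± 0.11 (adjusted p 1.43e-07, 95% interval 1.02 to 1.49), rank 26 by p-value among 14411 genes. It ranged from 1.19 to 1.35 over every other setting and passed in each of them, the exclusion of single female arrays included.

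In males the same gene moved less. WT intact males stood at 10.25, 10.40, 10.13 and 10.02 and KO intact males at 10.84, 10.42, 10.76 and 10.74, so that KO array 2 all but met the highest WT array. The groups did not overlap, which was so for no other member in this comparison. The change of 0.49 ± 0.11 (1.41-fold) did not pass (adjusted p 0.126), and without KO array 2 it was 0.58 with an adjusted p of 0.0438. In GDX males WT arrays gave 10.12, 10.04, 10.13 and 10.43 and KO arrays 10.86, 10.37, 10.60 and 10.69. WT array 4, from a mouse with Cre and 1 floxed allele, exceeded KO array 2. The change of 0.45 ± 0.11 (1.37-fold) passed (adjusted p 0.0273). The call ended when any of WT arrays 1, 2 and 3 or of KO arrays 1, 3 and 4 was left out (0.0516 to 0.0901) and with the GDX groups fitted alone (0.125).

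The knockout change of Fdx1 differed between the female and male comparisons, whose controls also differ in Cre and floxed alleles, so that sex and control genotype cannot be told apart in it. It was larger in females than in intact males by 0.76 ± 0.16 (adjusted p 0.00366) and larger than in GDX males by 0.80 ± 0.16 (adjusted p 0.00996). GDX and intact males differed by -0.04 ± 0.16 (adjusted p 0.97, 95% interval -0.37 to 0.29). Prkar1a itself was lower in KO females (6.665 to 7.347) than in KO intact males (6.889 to 8.475), by -0.814 ± 0.225 (limma adjusted p 0.00596). The knockout change of Prkar1a differed between females and intact males by -0.503 ± 0.318 (limma adjusted p 0.305). The part of residual Prkar1a in the Fdx1 difference was not tested. Fdx1 was the 1 member of 6 to pass in the female minus intact male difference (16% of all genes) and in the female minus GDX difference (3.31%). Limma called 0 of 6 in the GDX minus intact male difference (0.0278% of all genes), where 0 of 6 also had an unadjusted p under 0.05. The intervals of the female minus intact male difference for the other members were -0.03 to 0.24 for Star, 0.02 to 0.29 for Cyp11a1, -0.27 to 0.12 for Hsd3b1, 0.01 to 0.38 for Cyp21a1 and -0.24 to 0.07 for Cyp11b1.

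The order of females and intact males for Fdx1 was not the same in WT and KO. In WT it was lower in females (with Cre and 1 floxed allele) than in intact males (2 floxed alleles, no Cre), a contrast in which sex and genotype cannot be told apart (-0.41 ± 0.11, adjusted p 0.0279), without overlap. In KO it was higher in females (0.35 ± 0.11, adjusted p 0.0161), with KO female array 3 at 10.82 just under KO male array 1 at 10.84. The WT call ended without WT female arrays 1, 3 or 4 or WT male arrays 1 or 2 (adjusted p 0.0536 to 0.0986), and the KO call without KO female array 4 or KO male array 2 (0.053 and 0.079). Group means fell in the order KO female (11.04), KO male (10.69), KO GDX male (10.63), WT male (10.20), WT GDX male (10.18) and WT female (9.79). Each group overlapped the next except WT females, which lay apart from WT GDX males.

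Between the sexes of WT mice Fdx1 was the 1 call of 6 (7.75% of all genes), while Cyp11a1, at -0.15 ± 0.05, did not overlap between the groups (15.1% of all genes) and had an adjusted p of 0.0524. Between KO females and KO intact males 3 of 6 passed, all higher in females (41% of all genes passed, 17.8% higher): Fdx1, Cyp21a1 (0.27 ± 0.06, adjusted p 0.00188) and Star (0.12 ± 0.05, adjusted p 0.0467). Cyp21a1 and Star did not overlap between these groups (36.6% of all genes). Star lost this call without any 1 of KO females 1, 2, 3 or 4 or KO males 1, 2 or 3 (adjusted p 0.0555 to 0.13), and after another quantile normalization its difference was 0.03. These KO females also supply the KO arrays of the female comparison, so both comparisons rest in part on the same values. Markers of other cells were lower in KO females than in KO intact males: 15 of 16 medulla markers (list means 8.22 to 8.75 against 9.27 to 9.52), 9 of 10 endothelial (8.53 to 8.73 against 8.84 to 9.12), 8 of 11 capsule and mesenchymal (7.09 to 7.31 against 7.73 to 8.32), 9 of 11 zona glomerulosa and 4 of 10 adipocyte markers, where 23.1% of all genes were lower. Macrophage markers were higher in 4 of 11 and zona glomerulosa markers in 1 of 11 (17.8% of all genes higher). With the medulla mean as a covariate Star (0.13, adjusted p 0.409), Cyp21a1 (0.26, adjusted p 0.209) and Fdx1 (0.45, adjusted p 0.233) kept differences of about the same size or larger, and 0 of 6 passed. Over all genes 715 of 14411 passed with this covariate, against 5906 without it. The medulla means separated the KO females from the KO intact males, so the covariate also takes up part of the difference between them.

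Between GDX and intact males the calls among the 6 genes were near the shares over all genes. The WT GDX males were of mixed genotype, 3 of 4 with Cre, and the WT intact males all had 2 floxed alleles and no Cre, so gonadectomy and genotype cannot be told apart in WT. There limma called 0 of 6 (4.5% of all genes), with Cyp11a1 the 1 member at an unadjusted p under 0.05 (-0.15 ± 0.05, adjusted p 0.0746, no overlap, as for 9.29% of all genes). In KO males 1 of 6 passed (15.4% of all genes), Cyp21a1, higher after gonadectomy (0.19 ± 0.06, adjusted p 0.0418). Cyp21a1 and Cyp11a1 (-0.08 ± 0.05, adjusted p 0.258) did not overlap there (19% of all genes). That call ended without any 1 of the 4 KO male arrays or KO GDX arrays 2, 3 or 4 (adjusted p 0.0577 to 0.112). Fdx1 stood at -0.02 ± 0.11 in WT and -0.06 ± 0.11 in KO.

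Within groups the 6 genes leaned the same way. With each group's mean removed, Pearson's r over the 24 arrays was above 0 in all 15 pairs, from 0.10 for Star with Cyp11a1 to 0.61 for Hsd3b1 with Cyp21a1. The pairs share their arrays, so any shift of a whole array is part of these values. Hsd3b1 with Cyp11b1 (0.56), Star with Cyp21a1 (0.55) and Cyp21a1 with Cyp11b1 (0.54) followed, while Fdx1 reached 0.36 with Star and 0.12 to 0.23 with the others.

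The genes most like each member over the 24 arrays, group differences included, were different for each. For Fdx1 they were Dnm3 (Pearson's r 0.87), a dynamin, Jcad (0.86), a junctional protein, and Tnfrsf12a (0.86), the receptor of the cytokine TWEAK. With group means removed these fell to 0.26, 0.20 and 0.28. For Star they were Atp6v0a1 (0.89), a subunit of the vesicular proton pump, Lrrc27 (0.88) and Usp32 (0.88), with 0.71, 0.60 and 0.78 inside groups. Smarca1 (0.93), a chromatin remodeller, Pld3 (0.91) and Srp14 (0.89) were closest to Cyp11a1, and Rdh9 (0.90), a retinol dehydrogenase, Xpo5 (0.90) and Rnasek (0.90) to Cyp21a1. Hsd3b1 was closest to Rfwd3 (0.84), Hdac2 (0.82) and Nol8 (0.80), and Cyp11b1 less closely to Slc25a12 (0.74), Dcaf8 (0.74) and Eif3e (0.72).

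Several genes that feed or surround the chain changed in KO females by more than 1 log2 unit. They stood on lists grouped by textbook roles, chosen with earlier results of these data known and tested in the same fit. Of 12 genes of mitochondrial cholesterol entry, 3 rose in KO females and 0 fell. These were the cholesterol transfer proteins Stard5 (2.06 ± 0.22, adjusted p 8.2e-07) and Stard4 (1.01 ± 0.28, adjusted p 0.00751), and Lonp1 (0.32 ± 0.07, adjusted p 0.00115), the matrix protease that degrades Star. The list's median was 0.07 against -0.02 for all genes, and 3 of 12 called is below the 32.6% of all genes called in females. Limma called 0 of these 12 in intact males (0 at an unadjusted p under 0.05) and 0 in GDX males (1 at an unadjusted p under 0.05), with Stard5 at 0.40 (adjusted p 0.327) and Stard4 at -0.22 (adjusted p 0.726) in GDX males. Over all genes 0.111% were called in intact males and 4.23% in GDX males, so 0 of 12 says little.

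Among 6 tested electron transfer partners 2 rose and 1 fell in KO females, where 13.9% of all genes rose and 18.7% fell. Cyb5a, the electron-carrying cytochrome b5, rose by 1.09 ± 0.12 (adjusted p 9.93e-07) and the NADPH source Me1, malic enzyme, by 0.47 ± 0.07 (adjusted p 3.91e-05). Idh2, the mitochondrial isocitrate dehydrogenase that also makes NADPH, fell by 1.11 (standard error 0.10, adjusted p 1.03e-07). In GDX males Cyb5a rose (0.59 ± 0.12, adjusted p 0.00755) and Idh2 fell by 0.46 (adjusted p 0.00959), beside 4.23% of all genes called. In intact males limma called 0 of 6 (0.111% of all genes), and 1 had an unadjusted p under 0.05, Idh2 at -0.25 (adjusted p 0.532). Fdxr, the reductase that charges Fdx1, and Por, its counterpart in the endoplasmic reticulum, had no probe set of their own among the genes tested.

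Genes of cholesterol supply rose in 6 and fell in 2 of 13 in KO females (median 0.30), beside 13.9% higher and 18.7% lower among all genes. The synthesis enzymes Sqle (2.50), Cyp51 (2.37), Lss (1.99) and Hmgcs1 (1.38) led, and the efflux pump Abca1 (-0.75) and the lysosomal lipase Lipa (-0.43) were lower. In GDX males 2 rose, Scarb1 (0.78 ± 0.09, adjusted p 0.000102), which takes up lipoprotein cholesterol, and Dhcr7 (0.78 ± 0.11, adjusted p 0.000505), and 0 fell (2.26% of all genes higher, 1.97% lower), while Sqle stood at 0.85 (adjusted p 0.0536). The rises of Scarb1 and Dhcr7 were not particular to GDX males. Their knockout change was larger in females, by 0.156 and 0.325, and neither difference passed limma's test (adjusted p 0.563 and 0.252). In intact males limma called 0 of 13 (0.111% of all genes), with 3 at an unadjusted p under 0.05, among them Sqle at 0.83 (adjusted p 0.304) and Cyp51 at 0.80 (adjusted p 0.446).

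The related Hsd3b and Cyp11b genes that could be tested, Hsd3b6, Cyp11b2 and Hsd3b7, all 3 fell in KO females (18.7% of all genes lower). Hsd3b6 (-2.62 ± 0.60, adjusted p 0.0162) and Hsd3b7 (-0.34 ± 0.09, adjusted p 0.0344) also fell after gonadectomy (1.97% of all genes lower). In intact males limma called 0 of 3 (0.111% of all genes), with 1 at an unadjusted p under 0.05, Cyp11b2 at -0.95 (adjusted p 0.523). Of 11 genes of side branches and steroid metabolism 3 rose in KO females and 0 fell, a share called that is below the 32.6% of all genes. They were Hsd17b3 (1.30 ± 0.29, adjusted p 0.0015), which makes testosterone, Hsd17b11 (0.38 ± 0.11, adjusted p 0.00933) and H6pd (0.26 ± 0.09, adjusted p 0.0272), which supplies NADPH to the enzyme that regenerates active glucocorticoid. In intact males 1 rose, the progesterone-inactivating Akr1c18 (4.43 ± 0.73, adjusted p 0.0103), where 0.0694% of all genes were higher. In GDX males limma called 0 of 11 (4.23% of all genes), with 2 at an unadjusted p under 0.05, among them Hsd17b3 at 0.78 (adjusted p 0.129).

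Of 28 genes of the ACTH receptor and the regulators of steroidogenic genes 4 rose and 10 fell in KO females, the rises near the 13.9% of all genes that were higher and the falls beside 18.7% lower. The falls include Prkar1a (-1.43), the targeted gene, whose fall was set by the design. Mrap, the accessory protein of the ACTH receptor (1.21 ± 0.11, adjusted p 1.95e-07), and Sik1, a kinase induced by cyclic AMP (1.19 ± 0.27, adjusted p 0.00217), rose most. The CREB coactivators Crtc1 (-0.33), Crtc2 (-0.19) and Crtc3 (-0.41) and Creb1 itself (-0.25) were lower, as was the transcription factor Gata4 (-0.49). These 5 were picked out after their values were seen. In GDX males 1 rose and 3 fell (2.26% of all genes higher, 1.97% lower): Mrap (0.76 ± 0.11, adjusted p 0.000838), and Sp1 (-0.29), Nr3c1 (-0.46), the glucocorticoid receptor, and again the targeted gene Prkar1a (-1.20). In intact males limma called 0 of 28 (0.111% of all genes), with 2 at an unadjusted p under 0.05. The list is of mixed roles, and its medians were -0.11 for females, -0.06 for intact males and -0.02 after gonadectomy.

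**Figure D4:**
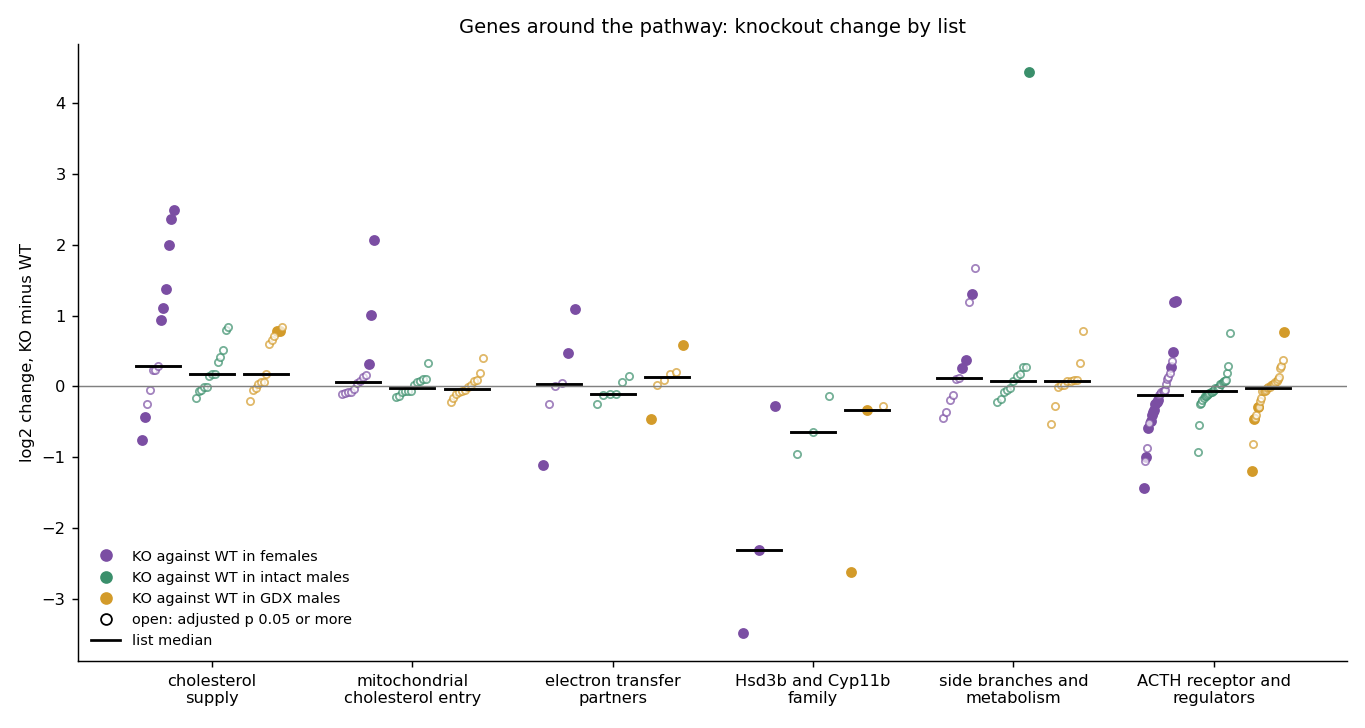
Log2 change in KO against WT of every tested gene in 6 lists around the pathway, with females in purple, intact males in green and GDX males in amber; filled points passed an adjusted p of 0.05 and black lines are list medians. In females Sqle stood at 2.50 and Hsd3b6 at -3.48, 2 genes named for their large changes.

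Markers of other cells moved with the female comparison, in which 13.9% of all genes were higher and 18.7% lower. Medulla markers fell in 12 of 16, with list means of 8.85 to 9.19 in WT and 8.22 to 8.75 in KO females. Adipocyte markers fell in 6 of 10 (8.55 to 9.83 against 7.42 to 8.09), capsule and mesenchymal markers in 8 of 11 (8.01 to 8.09 against 7.09 to 7.31) and zona glomerulosa markers in 9 of 11 (8.76 to 9.09 against 7.32 to 7.65). Macrophage markers rose in 4 of 11, and endothelial markers fell in 1 of 10, below that share. With the medulla mean as a covariate 2 of the 6 genes passed, and with the adipocyte mean 1. Calls over all 14411 genes fell as well, from 4694 to 2272 with the medulla mean and to 3436 with the adipocyte mean. Fdx1 was as large under both, at 1.30 (adjusted p 1.9e-05) and 1.35 (adjusted p 5.9e-06), while Star (0.13 and 0.06) and Cyp21a1 (0.20 and 0.12) passed under neither, and Cyp11a1 passed with the medulla mean alone. Both list means separated the KO females, below, from the WT females, above, so these covariates also take up part of the knockout difference. In GDX males the medulla means overlapped (8.76 to 9.44 in WT, 8.92 to 9.35 in KO) and limma called 0 of 16 medulla and 0 of 10 adipocyte markers (1 and 0 at an unadjusted p under 0.05), beside 4.23% of all genes. Zona glomerulosa markers fell there in 2 of 11 and capsule and mesenchymal markers in 1 of 11 (1.97% of all genes lower). In intact males limma also called 0 of 16 medulla and 0 of 10 adipocyte markers (3 and 0 at an unadjusted p under 0.05). Only 0.111% of all genes were called there, so these zeros say little. Of the endothelial markers 6 of 10 had an unadjusted p under 0.05 in intact males (list median 0.271), and 0 were called. Of the zona glomerulosa markers 3 of 11 did (median -0.301), again with 0 called. The part of these markers in the changes of Star, Cyp11a1 and Cyp21a1 was not tested beyond these fits.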

How the data were processed

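Total RNA from 24 whole adrenal glands (500 ng each, WT PLUS kit) was hybridised to arrays, and the authors deposited log2 signals made with RMA, per the submitters' processing notes. The software version was not given in the sources used here. Of 32202 probe sets 22943 had 1 gene symbol, 1731 several and 7528 none. Only those with 1 symbol were named, each gene was read from its probe set with the highest mean, and genes over log2 5 in at least 4 arrays were kept, 14411 of 21957. Limma 3.58.1 in R 4.3.3 fitted 6 group means with the default empirical Bayes prior, and p-values were adjusted over all genes tested by Benjamini-Hochberg, with calls at 0.05. The fit was tested on simulated data. Named genes were the 6 members, Prkar1a, Cyp11b2, up to 4 tested genes of a list with the largest change in a KO comparison, the 3 genes most like each member by Pearson's r, and list genes that a count of 5 or fewer calls needed. The members and lists were chosen with earlier results of these data known. The labels call the replicates biological, and no array depth exists, so precision is limited by 4 arrays a group. Replicate numbers were checked for pairing: deviations of same-numbered WT and KO GDX males correlated in every pair (0.12 to 0.24 across genes), and those of WT GDX and WT intact males at 0.09 to 0.24, with 1 pair under 0.1. Values ran from -0.083 to 0.007 for WT and KO females and from -0.168 to 0.024 for WT and KO intact males. For KO GDX and KO intact males they ran from -0.245 to 0.156. A pairing of the GDX mice would rest on these values alone, since the labels share only numbers. Correlations of like size but negative sign occur elsewhere, so a pairing is not established. Alternatives varied the filter, probe set rule, normalization, variance model, block, marker covariates and single arrays. Fitting the GDX groups alone with the block, and testing both Cyp11a1 probe sets separately, were chosen after seeing the data.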

Additional observations from a re-analysis of the deposited data

Results flagged for a closer look

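The knockout change of Fdx1 differed between females and intact males, by 0.76 on the log2 scale in the test of the difference itself, and between females and GDX males, by 0.801. Star in KO GDX male array 2, at 13.082, lay apart from the other 3 arrays of its group, which stood between 13.11 and 13.114. The gap is 0.03 log2 units in a group with an SD of 0.015, and chance alone sets 1 array apart in about 1 in 20 groups.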

How the results depend on the processing

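The rise of Fdx1 in KO females passed under every alternative run, and its excess over intact males under all but the medulla covariate (0.837, adjusted p 0.0566). Of the results and settings compared, 1143 kept direction and call, 66 lost a call, 12 gained one and 51 changed sign, and the cause was not tested. In KO females 4 members were called, 6 with array weights (Hsd3b1 and Cyp11b1 then lower, at -0.166 and -0.118), 2 with the medulla covariate, 1 with the adipocyte covariate and 2 to 3 with single arrays left out. In GDX males 1 was called, 0 with the groups fitted alone with or without the replicate block, and 0 to 1 with arrays left out; in intact males 0 to 1. With the replicate block in all 6 groups Fdx1 in GDX males stayed at 0.452 (adjusted p 0.0357), while Star was no longer called in KO females (adjusted p 0.0604) or between KO sexes (0.0608). Between KO sexes 3 were called, 1 after another quantile normalization, 0 with the medulla covariate and 1 to 3 with arrays left out. Between WT sexes 1 was called, 2 with a filter at log2 6 or an intensity trend, 3 with array weights, 0 with equal array medians or the medulla covariate, and 0 to 1 with arrays left out. For gonadectomy in KO males 1 was called, 0 without a filter, with equal medians, fitted alone or with the medulla covariate, and 0 to 1 with arrays left out. In WT males 0 were called, and 1 with a filter at log2 6 or an intensity trend. The excess of females over intact males went from 1 member to 0 with the medulla covariate. Averaging both probe sets turned Cyp11a1 to -0.313 in KO females, -0.215 in GDX males, -0.063 in intact males, -0.302 between KO sexes, and -0.25, -0.099 and -0.151 in the differences female minus intact, female minus GDX and GDX minus intact. The other sign changes were near 0. With covariates these were Cyp11a1 between KO sexes (adipocyte, -0.011) and in intact males (medulla, -0.006), Cyp11b1 between KO sexes (medulla, 0.074), Cyp21a1 in intact males (adipocyte, -0.017) and female minus GDX (adipocyte, -0.022), Star in intact males (adipocyte, -0.002), and Hsd3b1 female minus GDX (0.021) and female minus intact (0.02) with medulla. With equal array medians they were Cyp11b1 between KO sexes (0.003) and in GDX males (-0.001), Cyp21a1 in intact males (-0.005) and Star female minus GDX (0.009). Another quantile normalization gave 0.009 for Cyp11b1 in intact males and -0.004 for Cyp21a1 female minus GDX, and array weights gave 0.002 for Cyp11b1 in intact males. With single arrays left out, Cyp11a1 between KO sexes ran from -0.011 to 0.019, Cyp11b1 from -0.019 to 0.043 (gonadectomy, WT), -0.006 to 0.046 (KO, GDX) and -0.055 to 0.008 (KO, intact), and Cyp21a1 in intact males from -0.042 to 0.058. Fdx1 ran from -0.152 to 0.027 (gonadectomy, KO), -0.106 to 0.045 (gonadectomy, WT) and -0.131 to 0.047 (GDX minus intact), Hsd3b1 GDX minus intact from -0.076 to 0.001, and Star from -0.029 to 0.04 (WT sexes), -0.024 to 0.045 (KO, intact) and -0.02 to 0.004 (female minus GDX). Over all genes 4694 were called in KO females, 5857 with array weights, 2272 with the medulla covariate and 3436 with the adipocyte covariate. Between KO sexes 5906 were called, and 715 with the medulla covariate. In GDX males 609 were called, against 1200 with array weights, 52 fitted alone and 131 fitted alone with the replicate block.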
